A study of Homo sapiens with 7 samples.

Results

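Chromosomes 4, 13 and 18 are poor in genes, and their peaks of the nuclear protein NuMA and of the linker histone H1 are described here. All peaks that the 6 lists placed on these chromosomes were taken, which gave 2480 of 47959 peaks. RefSeq (GRCh38.p14) lists 1378 protein-coding genes on them, or 3.79 per Mb between the first and last peak, against 7.07 per Mb on the other 21 chromosomes. Chromosome 18 had 3.47 genes per Mb, chromosome 13 had 3.56 and chromosome 4 had 4.04, and only chromosome Y was lower than chromosome 18.

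All lists came from HCT116, a long-established line of human colon cancer cells, profiled by CUT&Tag, in which an antibody brings the transposase Tn5 to a bound protein so that the DNA around it is cut and tagged. There were 2 wild-type and 2 NuMA-depleted libraries for histone H1, whose titles carry the abbreviations NC and AID without spelling them out. Other differences between NC and AID cells, and how far NuMA was removed, cannot be told apart from the depletion itself in these lists. For NuMA, wild-type cells were probed with an antibody to the C terminus and one to the N terminus, with 1 library each and therefore no replicate check. A library made with immunoglobulin G was not analysed here, NuMA was not profiled in the depleted cells, and the labels do not say whether replicates came from separate cultures, so that p-values measure only the spread between libraries.

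NuMA is a long coiled-coil protein that organises the poles of the mitotic spindle and belongs to the nuclear scaffold between divisions. Histone H1 binds nucleosomes where the DNA enters and leaves them and favours compact chromatin. Human chromosomes rich in genes tend to lie in the interior of the nucleus and replicate early, whereas gene-poor chromosomes such as 18 tend to lie near the nuclear edge. Within a chromosome, genes are often crowded towards one end, as on the short arm of chromosome 4 and the long arm of chromosome 13.

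The lists differed in length and depth. The 2 wild-type H1 lists held 4552 and 5553 peaks, the 2 depleted lists 2616 and 1480, the C-terminal NuMA list 14240 and the N-terminal list 19518. Depth, recovered from the deposited fold and p of each peak, was 58.6% of the wild-type value in the depleted H1 libraries, and the N-terminal library was 1.66 times as deep as the C-terminal one. Within each H1 group, replicate 2 had 0.999 of the depth of replicate 1, although their lists differed in length. Depth and NuMA depletion cannot be told apart in the H1 libraries, nor depth and antibody in the NuMA libraries. Intervals in brackets are exact 95% intervals, which cover counting error only. They are Clopper-Pearson intervals for shares and for ratios of 2 counts. For the quotient of 2 ratios the interval is the exact conditional one of an odds ratio.

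NuMA peaks were scarce on all 3 chromosomes, and scarcer than their gene content. The C-terminal list placed 248 peaks on chromosome 4, 101 on chromosome 13 and 78 on chromosome 18, together 427 peaks or 3.00% (2.72 to 3.29) of the list. The N-terminal list placed 456, 202 and 137 there, together 795 peaks or 4.07% (3.80 to 4.36). Per Mb the C-terminal density was 1.18 against 5.23 on the other 21 chromosomes, a ratio of 0.225, and the N-terminal density was 2.19 against 7.09, a ratio of 0.308. The corresponding ratio for genes was 0.536, so the gap in NuMA peaks was wider than that in genes. For each protein-coding gene there were 0.310 C-terminal and 0.577 N-terminal peaks on the 3 chromosomes, against 0.740 and 1.00 elsewhere. In C-terminal peaks per gene, chromosome 4 (0.322), chromosome 13 (0.299) and chromosome 18 (0.289) ranked just above chromosomes Y and X. H1 peaks were less sparse there, with densities per Mb of 0.750 and 0.656 of those elsewhere in the wild-type lists and 0.734 and 0.711 in the depleted lists.

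**Figure D1:**
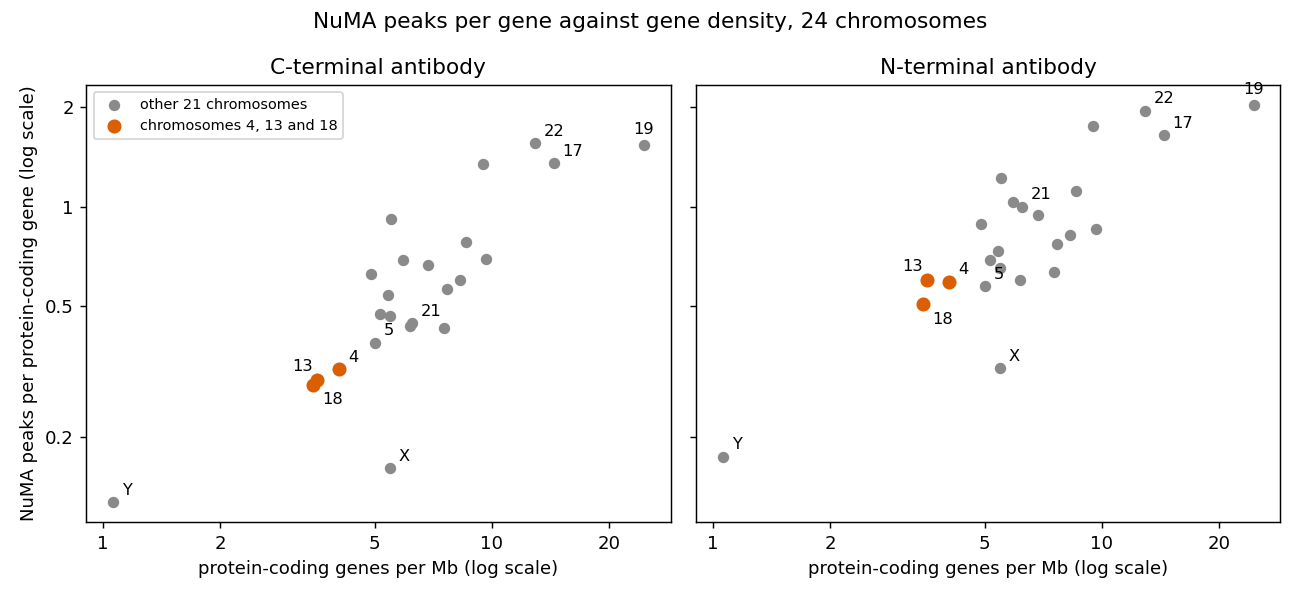
NuMA peaks per protein-coding gene against protein-coding genes per Mb for each of the 24 chromosomes, C-terminal antibody on the left and N-terminal antibody on the right, both axes logarithmic. Chromosomes 4, 13 and 18 (orange) sit at the lower left, at 0.322, 0.299 and 0.289 C-terminal peaks per gene, with only X and Y lower in the C-terminal panel.

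The peaks that were called crowded towards a few chromosome ends. On chromosome 4 the outer 5 Mb of the short arm held 310 of the 704 NuMA peaks (44.0%) on 2.62% of the span. That is 16.8 times its share of the length, the highest such ratio of the 48 chromosome ends. The opposite end of chromosome 4 held 16 peaks (2.27%), 0.866 times its share of the length. On chromosome 13 the outer 5 Mb of the long arm held 161 of 303 peaks (53.1%), 10.1 times its share of the length (rank 5 of the 48 ends). On chromosome 18 the outer 5 Mb of the long arm held 45 of 215 peaks (20.9%), 3.26 times its share (rank 20), and the short-arm end held 19 (8.84%). Crowding at an end was not particular to these chromosomes. On the other 21 the ratio ranged from 0 at the start of chromosome 21 to 16.0 at the end of chromosome 8, which held 54.6% of its NuMA peaks.

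H1 peaks were much less crowded into the short-arm end of chromosome 4 than NuMA peaks. In the order wild-type 1, wild-type 2, depleted 1 and depleted 2, that end held 10, 19, 4 and 6 H1 peaks, or 3.86%, 7.31%, 2.74% and 6.45% of each list's peaks on the chromosome. All 4 shares were above its 2.62% of the span and far below the 44.0% of the NuMA peaks. The long-arm end of the same chromosome, with NuMA near its share of the length, held 20, 22, 14 and 11 H1 peaks. This was more than the short-arm end in each of the 4 libraries. However, 12, 10, 9 and 7 of them lay in the single window chr4:190000001-191000000, and without that window the order did not hold in every library. The long-arm end of chromosome 13 held 13, 23, 13 and 4 H1 peaks and that of chromosome 18 held 13, 19, 7 and 3.

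**Figure D2:**
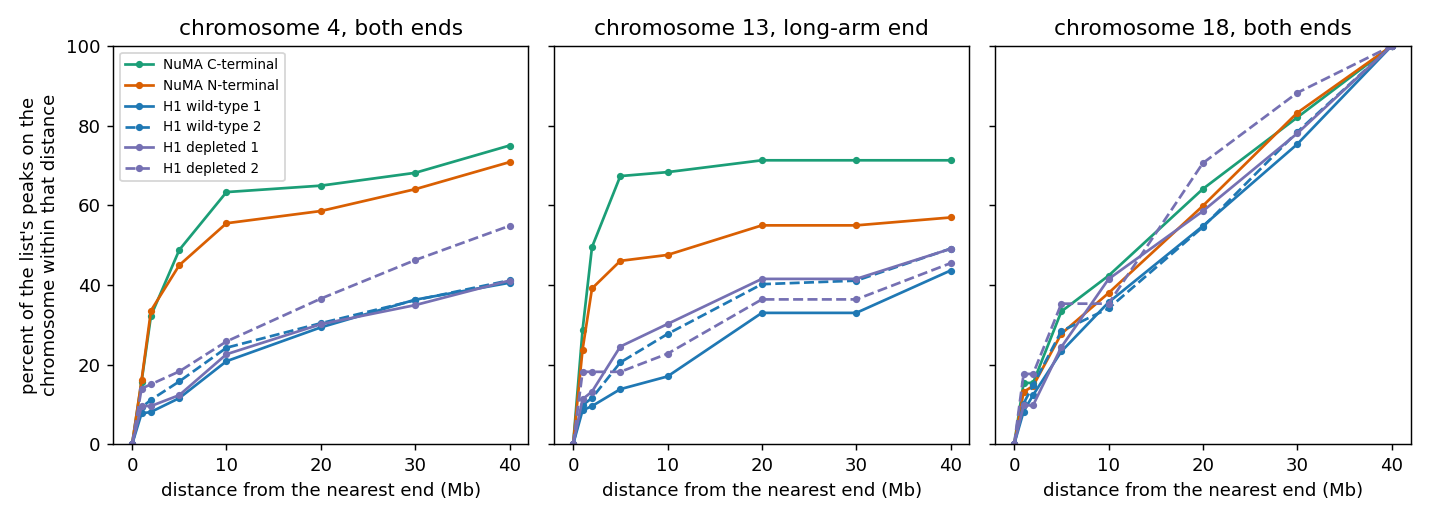
Percent of each list's peaks on the chromosome that lie within a given distance (Mb) of the nearest end, for chromosome 4, chromosome 13 (long-arm end only) and chromosome 18, with 1 line per list. On chromosomes 4 and 13 the NuMA lines climb within the first 5 Mb, to 67.3% of the C-terminal peaks on chromosome 13, while the 4 H1 lists reach 13.8% to 24.5% there, and on chromosome 18 the NuMA lines lie within the range of the H1 lines over much of the plot.

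Single windows carried much of this. In windows of 1 Mb, 191 of 366 (52.2%) held no NuMA peak, against 40.3% on the other chromosomes, and 15 windows (4.10%) were enough to hold 50% of all NuMA peaks, much as elsewhere (4.52%). The densest window was chr4:1000001-2000000 (hg19, as are all positions given), with 41 C-terminal and 82 N-terminal peaks. Next on chromosome 4 were chr4:2000001-3000000, with 34 and 55 peaks, and chr4:1-1000000, with 24 and 43. In the same order these windows held 3, 1 and 3 H1 peaks in wild-type 1 and 4, 2 and 7 in wild-type 2, where chromosome 4 as a whole had 1.36 per Mb in each. On chromosome 13 the window chr13:114000001-115000000 held 30 C-terminal and 52 N-terminal peaks, and here H1 was also dense, with 8, 11, 6 and 4 peaks. The windows chr13:113000001-114000000 (18 and 25 NuMA peaks) and chr13:111000001-112000000 (17 and 12) followed, the second with more C-terminal than N-terminal peaks. On chromosome 18 the peaks were less bunched, with 24 at chr18:77000001-78000000, 22 at chr18:12000001-13000000 and 17 at chr18:74000001-75000000. The 3 densest windows held 39.6% of the NuMA peaks of chromosome 4, 50.8% of chromosome 13 and 29.3% of chromosome 18. Such values were not particular to them, since chromosome 21 had 60.3%, chromosome 8 had 47.5% and chromosome 20 had 45.4%.

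Gene order in RefSeq (GRCh38.p14) shows what kind of genes these ends carry, although peaks on hg19 were assigned to no gene. From the short-arm tip of chromosome 4 inwards come zinc finger genes (ZNF595, ZNF718, ZNF141 and ZNF721), then PDE6B of the visual cascade, GAK, a kinase of clathrin uncoating, IDUA, a lysosomal enzyme, and CTBP1, a transcriptional corepressor. From the long-arm tip of chromosome 13 come CDC16 of the anaphase-promoting complex, GAS6, the ligand of TAM receptors, LAMP1 of the lysosomal membrane, CUL4A, a ubiquitin ligase scaffold, the clotting factor genes F10 and F7, and the collagen genes COL4A2 and COL4A1. From the long-arm tip of chromosome 18 come ADNP2, CTDP1, a phosphatase of RNA polymerase II, the T cell factor NFATC1, and MBP of myelin.

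The widest N-terminal peaks lay in a single place. N-terminal peaks wider than 4 kb numbered 7 on the 3 chromosomes (0.881% of the N-terminal peaks there, against 1.27% elsewhere), and all 7 fell in the first 2 Mb of chromosome 4. No C-terminal peak of the 427 there was wider than 4 kb, against 85 of 13813 elsewhere. The widest, chr4:1798921-1808825, spanned 9905 bp at a fold of 5.27, and 1 C-terminal peak covered 11.5% of it. The peak at chr4:980740-987824 (7085 bp) was met by 4 C-terminal peaks that covered 44.7% of it. The peak at chr4:672537-678943 (6407 bp) was met by 3 that covered 57.7%. Each of the 7 overlapped at least 1 C-terminal peak, and only chr4:1330662-1335073 overlapped an H1 peak of any list, in both depleted lists.

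Relative to the other chromosomes, N-terminal peaks outnumbered C-terminal peaks by more. There were 1.86 (1.65 to 2.10) N-terminal peaks for each C-terminal one, against 1.36 (1.33 to 1.39) elsewhere, and the quotient of the ratios was 1.37 (1.22 to 1.55). Chromosome 4 had a ratio of 1.84 (1.57 to 2.16), chromosome 13 one of 2.00 (1.57 to 2.57) and chromosome 18 one of 1.76 (1.32 to 2.35). Among the 24 chromosomes only 21, at 2.25, was above chromosome 13, and chromosome X equalled it at 2.00. These intervals treat the lists as independent counts, although many peaks of both antibodies mark the same place. With the N-terminal list reduced to the length of the C-terminal list by strength, the ratio was 1.22 on the 3 chromosomes and 0.993 elsewhere, a quotient of 1.22.

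**Figure D3:**
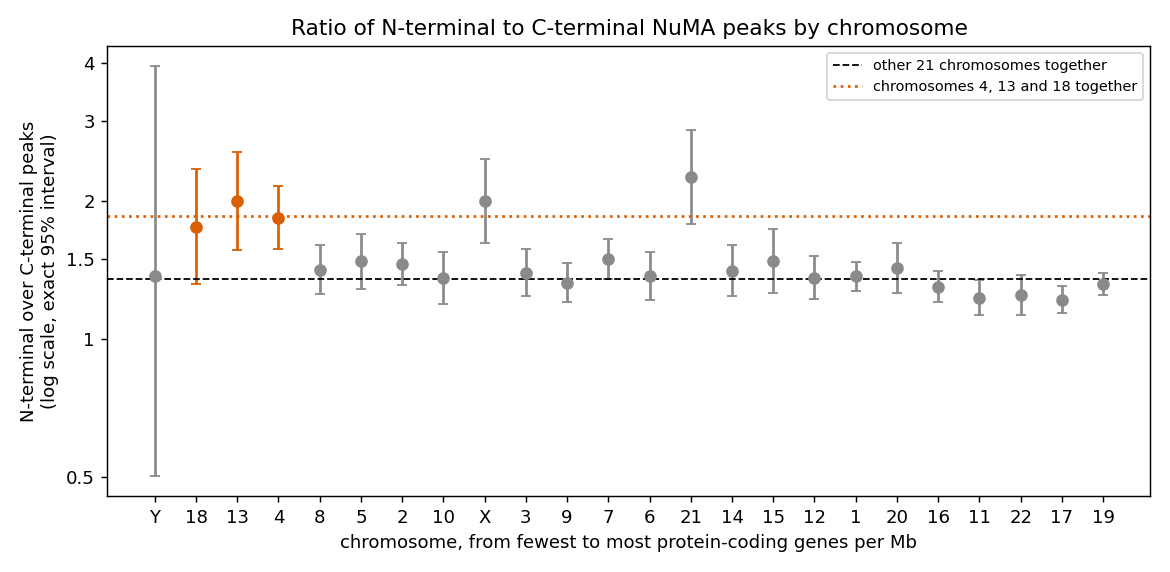
Number of N-terminal NuMA peaks for each C-terminal peak (log axis) on each chromosome, ordered from fewest to most protein-coding genes per Mb, with exact 95% intervals for counting error. Chromosomes 4, 13 and 18 (orange, 1.84, 2.00 and 1.76) lie with X and 21 (2.00 and 2.25) above all the rest, of which chromosome 7 comes next at 1.50, and the dashed line marks the other 21 chromosomes together (1.36).

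The surplus of N-terminal peaks was larger away from the crowded ends. In the outer 5 Mb of 4p, 13q and 18q together the ratio was 1.58 (1.32 to 1.90), from 200 C-terminal and 316 N-terminal peaks. In the rest of the 3 chromosomes it was 2.11 (1.80 to 2.48), from 227 and 479 peaks. Chromosome 13 had the widest gap, 1.37 (0.9897 to 1.90) in the tip and 3.30 (2.22 to 5.04) in the rest. On chromosome 4 the tip (1.77) and the rest (1.90) were close, and their intervals overlapped. The ratio was highest in windows with few NuMA peaks, also on the other chromosomes. Windows of 1 or 2 peaks gave 4.80 on the 3 chromosomes and 2.98 on the others, and windows of 11 to 20 peaks gave 1.35 and 1.43. The densest windows, of 41 peaks or more, broke this fall on the 3 chromosomes, with 1.75 against 1.27. Such a split by peak number is partly fixed by the longer N-terminal list, since a window with 1 peak is more often 1 from that list. On the 3 chromosomes 58 windows held N-terminal peaks without a C-terminal one, and 2 windows the reverse, of 366, against 342 and 60 of 2653 elsewhere.

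The antibodies agreed on most C-terminal peaks but on fewer of the N-terminal peaks than elsewhere. Of the 427 C-terminal peaks, 301 or 70.5% (65.9 to 74.8) overlapped an N-terminal peak by at least 1 bp, against 73.0% over all chromosomes. Of the 795 N-terminal peaks, 289 or 36.4% (33.0 to 39.8) overlapped a C-terminal peak, against 51.4% over all chromosomes and 52.0% on the other 21. The C-terminal share was 74.2% on chromosome 4, 67.3% on chromosome 13 and 62.8% on chromosome 18. The N-terminal share was 37.9%, 32.7% and 36.5%, below 52.0% on each. Low N-terminal shares were not particular to them, with 26.4% on chromosome 21, 27.3% on Y, 38.9% on 15 and 39.1% on X. Shared C-terminal peaks had a density per Mb of 0.217 of that elsewhere, whereas unpartnered N-terminal peaks had 0.409. The scarcity was thus smaller for peaks of the N-terminal antibody alone. In the tips 42.4% of the N-terminal peaks were shared and in the rest of the 3 chromosomes 32.4%.

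Shared peaks were wider and had more fragments at the summit with both antibodies, while the fold differed in opposite ways. A shared C-terminal peak was 757 bp wide (median) at a fold of 4.32, with 33 fragments at its summit over a local background of 7.31. A C-terminal peak without a partner was 542 bp wide at a higher fold of 6.15, with 12 fragments over a background of 0.742. Their high fold thus rested on few fragments. A shared N-terminal peak was 1034 bp wide at a fold of 5.29 with 73 fragments, and one without a partner 686 bp wide at 3.57 with 58 fragments. The N-terminal fold was the higher one in 216 of the 301 shared regions (71.8%, against 72.4% elsewhere), each fold being its own list's value.

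In width the NuMA peaks were like those of other chromosomes, and in fold they were lower. The median width was 679 bp for C-terminal peaks (714 elsewhere) and 790 bp for N-terminal peaks (789 elsewhere). The median fold, which the authors give as fragments at the summit over local background, was 4.99 against 5.61 for the C-terminal list and 4.14 against 5.04 for the N-terminal list. Summit fragments were no fewer, with medians of 28 against 27 and 61 against 58. The local background, as recovered from fold and p, was higher, at 4.50 against 3.96 fragments in the C-terminal list and 14.3 against 11.4 in the N-terminal list. Whether a control library entered the NuMA peak calls is not given, so the library that this background reflects is not known. Low folds were also seen elsewhere, with C-terminal and N-terminal medians of 4.41 and 4.17 on chromosome 8 and 4.62 and 3.74 on chromosome 21.

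The strongest regions of both antibodies on chromosome 4 lay far from its crowded end. The region chr4:139936518-139937250 had the highest folds of both lists on the 3 chromosomes, 15.8 (C-terminal) and 20.6 (N-terminal), with 46 and 87 fragments at the summits. Wild-type H1 library 2 had a peak there at a fold of 6.09, and the other 3 H1 lists had none. The region chr4:146019079-146020036 reached 13.7 and 17.9 and carried H1 in both wild-type lists (6.56 and 7.07) and in depleted 1 (8.60). At chr4:83931550-83932250 the folds were 13.2 and 20.3, with no H1 peak. At chr4:128801762-128802869 they were 11.02 and 13.5, with H1 at 6.76, 5.34 and 6.07 in the same 3 lists. The widest C-terminal peak with an N-terminal partner on this chromosome, chr4:679694-682661 (2968 bp), lay in the crowded end and had low folds of 2.93 and 3.67 with 76 and 156 fragments.

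On chromosome 13 the strongest region of both antibodies was chr13:41634239-41636277, at folds of 9.77 and 12.5 and also the widest shared C-terminal peak there (2039 bp). The other 3 of the 4 strongest lay within the crowded end, at chr13:113364186-113365420 (8.93 and 8.29), chr13:113376005-113377104 (8.004 and 9.47) and chr13:113570897-113571791 (11.5 and 7.69). None of these 4 carried an H1 peak. On chromosome 18, chr18:43684116-43684789 led at 12.7 and 17.5, followed by chr18:47018296-47018928 at 10.8 and 15.3. A pair at chr18:3634927-3635592 (10.2 and 9.59) and chr18:3623921-3624819 (14.6 and 9.33) lay on the short arm. The widest shared C-terminal peak of the 3 chromosomes, chr18:47810445-47814213, spanned 3769 bp at folds of 5.10 and 6.85.

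Peaks of a single antibody were led on chromosome 4 by a C-terminal one, chr4:49514539-49515356, at a fold of 14.9. Of the peaks named here for a single antibody, only this one carried H1 in all 4 lists, at folds of 8.91, 9.06, 8.27 and 7.43. Others of the C-terminal antibody alone were chr13:113869682-113870356 (12.2) and chr18:9741386-9741966 (10.9). The strongest of the N-terminal antibody alone were chr4:2538929-2539582 (12.2), chr13:21714168-21714878 (13.2) and chr18:24059174-24059834 (11.2), none with an H1 peak. The N-terminal peak chr18:43677906-43678496 (9.995) ended the longest NuMA-free stretch of its chromosome, and the strongest region of both antibodies on chromosome 18 followed within the next 10 kb.

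Long stretches without a NuMA peak of either antibody took up much of the 3 chromosomes. Stretches of at least 3 Mb numbered 33 and covered 178.2 Mb, or 49.0% of the span, against 34.0% on the other 21 chromosomes, where chromosome Y had 96.4%. They are raw distances between peaks. Gaps of the build and sequence to which reads cannot be mapped were not taken out, here or elsewhere, so part of a stretch may be unable to hold a peak. They covered 46.7% of chromosome 4, 52.7% of chromosome 13 and 50.3% of chromosome 18, the fifth, the third and the fourth highest of the 24. The longest of them was chr13:80914826-95248406 (14.3 Mb, the seventh longest of the longest stretches of the 24 chromosomes), followed on that chromosome by chr13:60971438-73301289 (12.3 Mb) and chr13:53227145-60737690 (7.51 Mb). On chromosome 4 the longest were chr4:57844287-68410974 (10.6 Mb), chr4:129734073-139919568 (10.2 Mb) and chr4:18024105-24585490 (6.56 Mb). On chromosome 18 they were chr18:34409305-43677905 (9.27 Mb), chr18:61638488-67506706 (5.87 Mb) and chr18:13727319-18656658 (4.93 Mb), the last of which spans the centromere. The second stretch of chromosome 4 stopped within 20 kb of the strongest NuMA region of that chromosome.

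**Figure D4:**
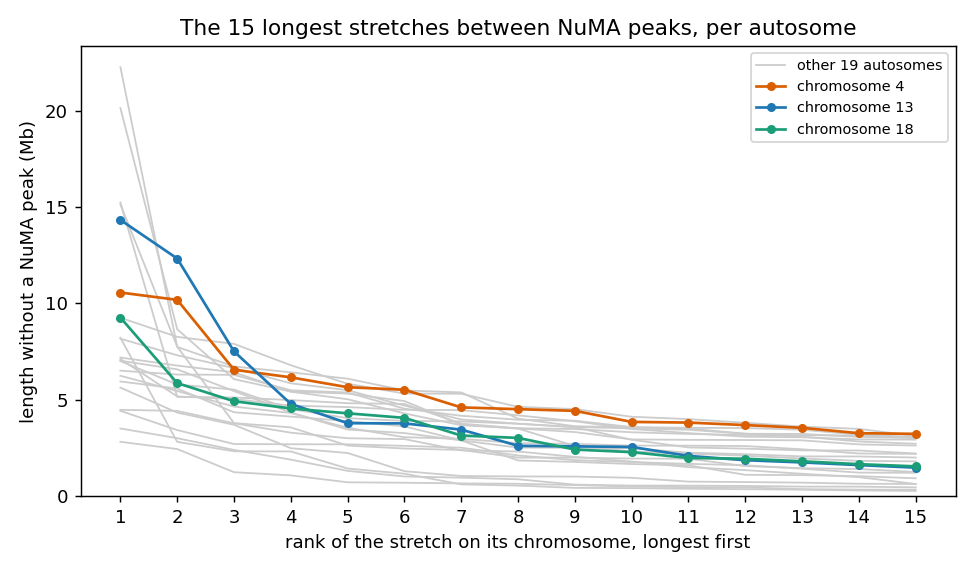
Lengths (Mb) of the 15 longest stretches between neighbouring NuMA peaks of either antibody on each autosome, longest first, with chromosomes 4, 13 and 18 in colour and the other 19 autosomes in grey. The first stretches of chromosome 13 reach 14.3 and 12.3 Mb, and chromosome 4 keeps stretches over 3 Mb through rank 15, as chromosomes 2, 3, 5 and 7 do. Chromosomes 1, 9, 5 and 16 have longer first stretches (22.3, 20.1, 15.2 and 15.1 Mb). Gaps of the build were not taken out of the lengths.

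H1 peaks were also sparse in these stretches, but not absent. Since unmappable sequence was not taken out of the stretches, the H1 densities in them are per Mb of raw distance. The stretches held 88 and 85 H1 peaks in the wild-type lists and 43 and 23 in the depleted lists. Per Mb this was 0.494, 0.477, 0.241 and 0.129, against 1.83, 2.02, 1.06 and 0.589 outside them. The density inside was thus 0.271, 0.236, 0.227 and 0.219 of that outside. The stretches held 20.7% and 18.5% of H1 peaks in the wild-type lists and 17.9% and 17.4% in the depleted lists, groups that did not overlap (exact two-sided permutation p = 0.333, the smallest that 2 against 2 libraries allow). The stretches differed widely from each other. The longest, on chromosome 13, held 1, 1, 1 and 0 H1 peaks, and chr4:129734073-139919568 held 10, 18, 3 and 1, the most of the 9 named stretches in both wild-type lists.

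Fewer H1 peaks were called on each of the 3 chromosomes in the depleted libraries. The 3 chromosomes held 426 and 460 H1 peaks in the wild-type lists, a mean of 443 ± 24.04 (SD, n = 2), and 240 and 132 in the depleted lists, a mean of 186 ± 76.4 (SD, n = 2). Both depleted lists were below both wild-type lists, as on all 24 chromosomes (100%), and the log2 ratio of the means was -1.25 (exact permutation p = 0.333), against -1.31 on the other 21 chromosomes. On chromosome 4 the counts were 259, 260, 146 and 93 (log2 ratio -1.12). They were 94, 112, 53 and 22 on chromosome 13 (-1.46) and 73, 88, 41 and 17 on chromosome 18 (-1.47). With each H1 list reduced to the same length by strength, the log2 ratio was 0.016 (exact permutation p = 1), which restates the share of the 3 chromosomes, since equal lists have no difference in total.

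As a share of each library's own H1 peaks, the 3 chromosomes differed between the groups by less than the spread of replicates. They held 9.36% and 8.28% in the wild-type lists and 9.17% and 8.92% in the depleted lists, a difference of 0.23 percentage points (exact permutation p = 1). The share of chromosome 18 was 1.60% and 1.58% in the wild-type lists and 1.57% and 1.15% in the depleted lists. These do not overlap, which was also so, in the same direction, for 16.7% of the 24 chromosomes (exact permutation p = 0.333). Median H1 width on the 3 chromosomes was 412.5, 371.5, 430 and 310.5 bp and median fold 6.58, 6.39, 6.65 and 6.92. Summit fragments were 18, 17, 15 and 14 (medians).

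In 3 windows of chromosome 4 the depleted lists held more H1 peaks, relative to the wild-type lists, than on the rest of it. They were chr4:49000001-50000000 (13, 11, 9 and 8 peaks), chr4:190000001-191000000 (12, 10, 9 and 7) and chr4:9000001-10000000 (9, 9, 8 and 6). Together they had 34 and 30 wild-type and 26 and 21 depleted peaks, a ratio of means of 0.734, against 0.422 on the rest of chromosome 4. They held nearly no NuMA, with 2, 0 and 1 C-terminal and 0, 0 and 1 N-terminal peaks. The windows were chosen for their wild-type H1 peaks, and the difference in ratio was not tested. Their 20 regions called in all 4 lists had median summits of 55.5, 62.5, 47 and 32 fragments. The 41 such regions elsewhere on the 3 chromosomes had 28, 25, 21 and 16. The median ratio of depleted to wild-type fragments was 64.6% in the windows and 69.2% elsewhere. Such regions were 69.0% of those in both wild-type lists in the windows and 20.8% elsewhere on the 3 chromosomes. With selection this unequal, the 2 ratios do not show where summit fragments were better kept. The densest H1 windows of the other chromosomes had lower ratios of depleted to wild-type peaks. The window chr13:114000001-115000000, dense in NuMA, held 8 and 11 wild-type and 6 and 4 depleted peaks (ratio of means 0.526). The window chr18:74000001-75000000 held 6 and 6 against 4 and 2 (0.5), and chr18:12000001-13000000 held 3 and 6 against 0 and 0.

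**Figure D5:**
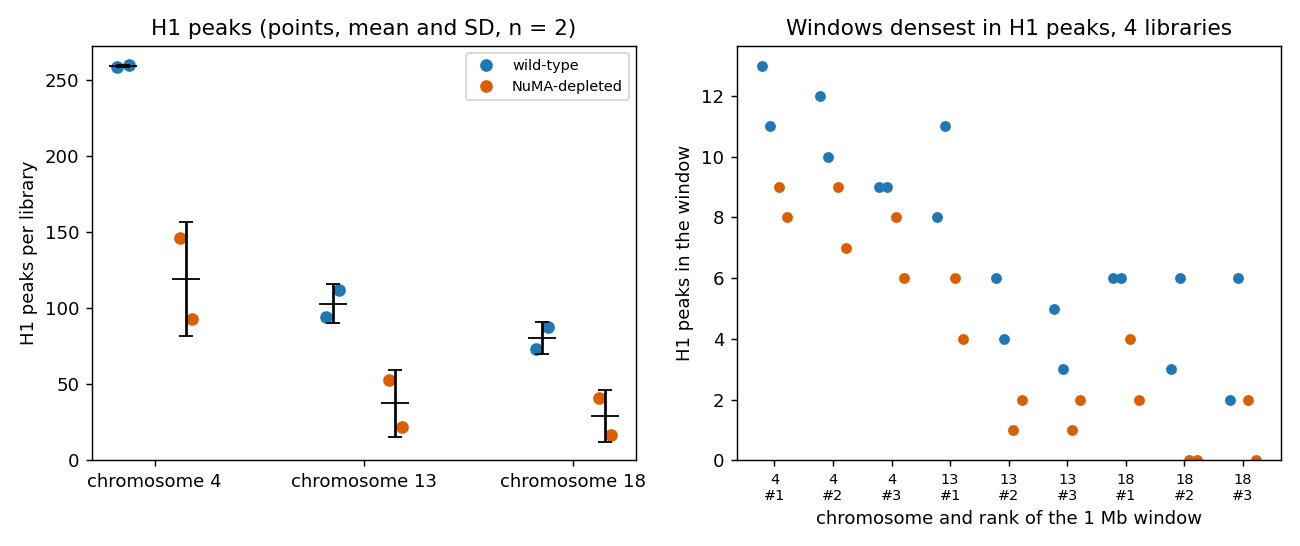
Left, H1 peaks per library on chromosomes 4, 13 and 18 (points), with mean and SD of the 2 wild-type (blue) and 2 NuMA-depleted (orange) libraries. Right, H1 peaks of the 4 libraries in the 3 windows of 1 Mb with most wild-type H1 peaks on each chromosome, where the depleted libraries hold 6 to 9 peaks in the windows of chromosome 4 and 0 to 6 in the others.

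Most H1 regions that both wild-type lists held on the 3 chromosomes were called again in a depleted list. There were 226 such regions, of which 61 (27.0%) were called in both depleted lists, 81 (35.8%) in 1 and 84 (37.2%) in neither. Over all chromosomes 23.9% were called in both and 40.2% in neither. At least 1 depleted list held 142 regions or 62.8% (56.2 to 69.1), against 59.8% over all chromosomes. Counting the regions called in both, depleted replicate 1 held 55.8% and depleted replicate 2 held 34.1%. The share was 66.2% of 145 regions on chromosome 4, 54.3% of 46 on chromosome 13 and 60% of 35 on chromosome 18. In the 3 H1-dense windows of chromosome 4 it was 27 of 29 (93.1%), and without them 58.4% on the 3 chromosomes. The regions of lower wild-type fold were kept in 52.2% and those of higher fold in 73.5%.

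H1 regions on and off NuMA peaks were kept at close shares, which were not tested because regions are not replicates of a condition. Of the 226 regions 58 (25.7%) overlapped a NuMA peak, against 34.0% over all chromosomes, and 25 (11.1%) a region of both antibodies, against 16.0%. Of the 58, 63.8% (50.1 to 76.0) were kept in a depleted list, and of the 168 off NuMA peaks 62.5% (54.7 to 69.8). On the other 21 chromosomes the same shares were 66.1% (62.6 to 69.4) and 55.9% (53.3 to 58.5). The wide interval of the 58 regions leaves room for a gap of that size on the 3 chromosomes. Of all H1 peaks on the 3 chromosomes, 25.6% and 18.9% of the wild-type and 29.2% and 21.97% of the depleted ones overlapped a NuMA peak (exact permutation p = 0.667). Over all chromosomes these were 31.7%, 24.9%, 36.6% and 29.5%, higher in each library.

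Named H1 regions show both outcomes. The strongest region of all 4 lists, chr4:167501185-167501789, had folds of 16.3, 17.1, 15.2 and 17.4, with 62, 52, 49 and 42 fragments at the summit. Near the long-arm end of chromosome 4, chr4:191043890-191044223 had 13.9, 17.995, 13.99 and 13.9, and chr4:190235565-190235973 had 14.4, 16.5, 12.3 and 14.7. None of these 3 lay on a NuMA peak. On chromosome 13, chr13:76123523-76123880 was kept at 7.69, 6.95, 8.81 and 7.29 and lay on an N-terminal peak, and chr13:49106823-49107218 was kept at 10.4, 6.57, 7.98 and 12.2 off NuMA peaks. On chromosome 18, chr18:56806656-56807062 was kept at 8.39, 7.65, 8.31 and 9.21.

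H1 regions present in both wild-type lists and in neither depleted list had wild-type folds in the same range as some kept ones. They were led by chr4:124694058-124694430 (8.63 and 9.18), chr4:78288171-78288484 (7.95 and 9.49), chr13:40516826-40517327 (9.27 and 9.58) and chr18:48311057-48311390 (8.14 and 7.65), all off NuMA peaks. The region chr13:73301672-73302273 (8.36 and 8.52) lay on an N-terminal peak, at the edge of the second longest stretch of chromosome 13. Of the H1 regions on both antibodies, chr4:467689-468113 (7.30 and 7.69) and chr18:32820485-32821067 (8.18 and 8.68) were called again in depleted 1, at 7.61 and 8.47, and not in depleted 2. The region chr13:46038845-46039414 (6.40 and 6.42) was called in neither.

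Few regions were called after depletion alone. Of 75 regions in both depleted lists 3 were in neither wild-type list, against 5.64% over all chromosomes. They were chr4:1331210-1331584 (6.15 and 5.64), inside a wide N-terminal peak of the crowded end, chr18:73120799-73121365 (6.54 and 6.74) and chr18:47375893-47376259 (5.85 and 7.14). Their summits held 20 and 14, 17 and 13, and 15 and 14 fragments.

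At the 61 regions called in all 4 lists, summits held fewer fragments in both depleted libraries. The median summit held 31 and 32 fragments in the wild-type and 28 and 20 in the depleted lists. The median ratio of depleted to wild-type fragments was 65.9% (quartiles 59.9% and 79.8%), against 71.0% on the other 21 chromosomes and a depth of 58.6%. Only regions called in both depleted lists enter this ratio, so those that fell below the calling limit there are missing. That selection can raise the ratio, so its distance from the depth cannot be read as H1 that was kept. A few regions had far higher summits. The region chr18:107463-109475, near the short-arm end, had 682, 697, 708 and 630 fragments over a local background of 103 in wild-type 1, where the median background on the 3 chromosomes was 1.77. The region chr18:18518431-18520331, beside the centromere, had 555, 552, 520 and 338 over 63.8. Folds at both were ordinary, between 6.28 and 9.12. On chromosome 4 the region chr4:68265295-68266102, inside the longest NuMA-free stretch, had 263, 269, 150 and 140 fragments over 23.98.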

How the data were processed

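The reads had been processed by the authors with Bowtie2, MACS2, Picard and Trim Galore on hg19, per the submitters' processing notes, which give no version or setting. The deposited lists, 1 per library, give each peak's fold (the authors' ratio at the summit), −log10 p, −log10 q, a score that was not used, and start, end and summit offset. The peak names state a q limit of 0.001. Per the labels' protocols, 10000 cells entered each assay.

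Chromosomes 1 to 22, X and Y were kept. Peaks sharing 1 bp counted as overlapping. Spans run from the first to the last peak of all 6 lists. Gaps of the build and unmappable sequence were not taken out of spans, windows or stretches. Summit fragments and local background were recovered from fold and −log10 p as a Poisson tail, with fold as fragments plus 1 over background plus 1. Between 99.5% and 100% of peaks gave a whole count within 0.01. Depth is the lowest background for each bp of the shortest peak. H1 groups were compared over libraries by exact two-sided permutation. Scripts (Python 3.11.15, numpy 2.4.6, scipy 1.17.1, pandas 2.3.3, matplotlib 3.10.9) were tested on simulated data.

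On each chromosome, the regions named were the 4 regions of both antibodies with the highest lower fold and the widest, the 2 highest peaks of each antibody alone, the 3 densest windows, the 3 longest stretches, the 3 H1 regions of all 4 lists with the highest lowest fold, the 2 highest lost H1 regions, up to 2 on both antibodies and up to 3 of the depleted lists alone; some are left out of the text. Regions over 4 kb wide or over 200 fragments high were chosen after their values were seen. The chromosomes and lists were chosen with earlier results of these data known. Since the gene annotation is GRCh38.p14, peaks were assigned to no gene, the gene clusters planned for description are not described, and no sequence is printed.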

Additional observations from a re-analysis of the deposited data

How the results depend on the processing

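Of 66 alternative values for 17 results, 6 changed sign, 19 moved and 41 did neither. Moved means outside the interval of the main value or, for the longest stretches, a clearly different length. Only differences between the H1 groups could change sign, since the other results are ratios, shares or lengths. Differences between the H1 groups were never past a threshold, so that keeping their sign says nothing about their size. With lists of equal length the total difference is 0 by construction. The log2 ratio of H1 peaks on the 3 chromosomes was 0.016 with lists of equal length and ranged from -1.75 to -0.88 with 1 library left out. The replicate numbers did not pair the libraries (correlation of deviations across 24 chromosomes -0.18). With the replicate block, and equally with the crossed pairing, the log2 ratio was -1.31, since a mean of log ratios is the same for any pairing. By construction the block also leaves the H1 share at 0.23 points and the overlap with NuMA at 3.32 points. These block values are counted among the 41 but are no check of the results. The share difference was -0.34 without the 3 H1-dense windows of chromosome 4, and -0.31 to 0.76 with 1 library left out. The difference in H1 peaks on NuMA was -1.89 points with 50% reciprocal overlap and -0.28 to 6.92 with 1 library left out; without wild-type replicate 2 it was -0.02. The N-terminal to C-terminal quotient was 1.56 without the outer 5 Mb of 4p, 13q and 18q. The C-terminal share with a partner was 49.4% with reciprocal overlap, 50.4% with summits within 200 bp and 59.5% with equal lists; the N-terminal share was 26.5%, 27.0% and 46.4%, where the other 21 chromosomes had 40.7%, 38.4% and 61.3%. By covered length the C-terminal density ratio was 0.195. With regions of both antibodies alone the longest stretches were 11.8, 26.8 and 13.2 Mb on chromosomes 4, 13 and 18. The 3 densest windows of each chromosome held 40.6% of the NuMA peaks, 27.8% with 500 kb and 48.0% with 2 Mb windows. Of the wild-type H1 regions, the share kept was 55.4% by summits, 83.9% (52 of 62) with equal lists and 34.1% to 55.8% with 1 library left out, lowest without NuMA-depleted replicate 1. The crossed pairing and the settings without the H1-dense windows or the outer 5 Mb were chosen after seeing the data. The cause of these shifts was not tested. The NuMA results rest on 1 library each, and peaks below the calling limit are unseen.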
